A study of Mus musculus with 2 samples.

Results

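The 91 genes described here gave signal in RankL-treated intestinal organoids and little or none in untreated ones. They were chosen from the measured values themselves. A probe was taken if its net signal, the median brightness of the spot minus the median brightness of the local background, was at least 150 in RankL RNA on both arrays and below 50 in untreated RNA on both. Of 41174 probes 117 met these thresholds, which is 0.284%, and 13 of them carried no gene symbol. A further 9 belonged to genes that the selection leaves out by name (Cubn, Anxa10, Scg5, Oasl2, Ccl20, Bcl2a1b, Bcl2a1c, Tnfrsf11b and Sox8). The remaining 95 probes belonged to 91 of the 18350 genes with a symbol on the array.

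The RankL group was organoids of wild-type mouse small intestine cultured with recombinant mouse RankL, and the untreated group was such organoids cultured without it. Both were grown in medium with EGF, Noggin and R-spondin. The series' design text puts RankL between 50 and 200 ng/ml, and the medium was renewed on day 2 and on day 5. No source used here gives the dose of these cultures, when they were harvested, or the strain, age and number of the mice. RNA of the groups was hybridised together on 2 dual-colour arrays of 1 slide, and array 2 repeats array 1 with the dyes exchanged. RankL RNA carried Cy3 on array 1, whereas on array 2 it carried Cy5. The arrays thus hold 1 RNA pair and 1 replicate per group, so no test was possible and none is given. In the values below the first number is array 1 and the second array 2. A ± gives the SD between these arrays, which is technical only and holds nothing of how cultures vary. In bulk RNA more cells of a type and more RNA per cell cannot be told apart.

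RankL is a cytokine of the TNF family. It binds the receptor RANK (Tnfrsf11a) on epithelial cells over Peyer's patches, which signals through TRAF adaptors to the canonical and noncanonical arms of NF-kB. In the intestine this signal drives the formation of M cells, flat epithelial cells with few microvilli that carry particles and microbes from the lumen to the immune cells below, and the Ets factor Spi-B is needed for their maturation. In bone the same cytokine drives the formation of osteoclasts from myeloid precursors.

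On these arrays 19 of 19 M cell markers, a list chosen with earlier results of these data known, were higher with RankL by a size rule, that is a mean log2 ratio of at least 1 (2-fold) and at least 0.5 on each array. Their median log2 ratio was 3.40, against 0.0086 over all 12891 measured genes. By the same rule 5.45% of the measured genes were higher and 2.5% lower with RankL. Among NF-kB targets with a measured probe, 10 of 13 rose by that rule, 0 fell and 3 did neither (median log2 ratio 1.82), and of 9 measured RANK pathway genes 4 were higher, 0 lower and 5 neither (median 0.93). The members overlap with these lists in Aif1 (M cell) and Traf1 (RANK pathway). All 91 members were higher by the size rule, which the way they were chosen fixes, so their count and the 5.45% say nothing further about them.

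**Figure D1:**
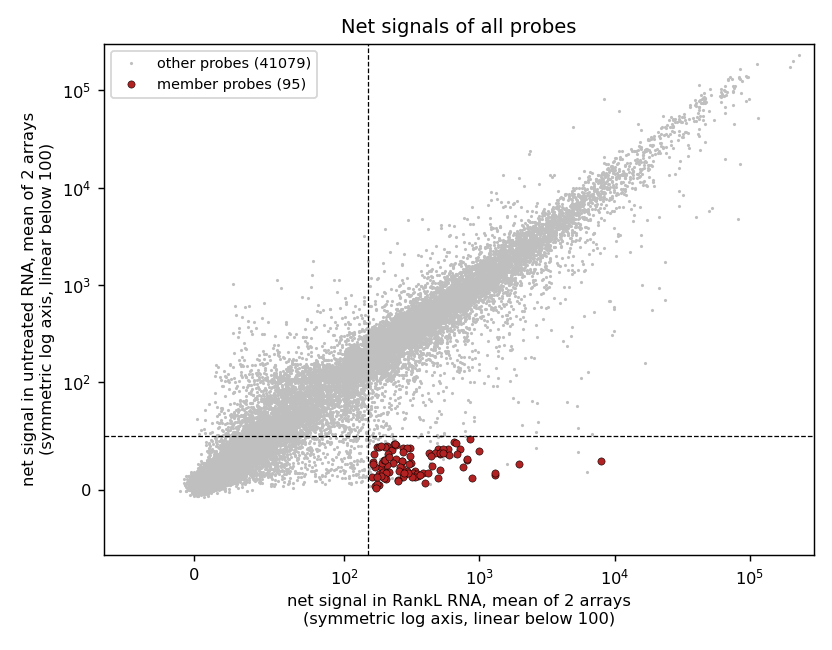
Net signal of every probe in RankL RNA (horizontal) and in untreated RNA (vertical), each the mean of 2 arrays on a symmetric log axis. Red points are the 95 member probes, grey points all others, and dashed lines mark 150 and 50. Grey points inside the lower right corner carry no symbol, were left out by name or missed a threshold on 1 array.

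The label of the set, transcripts seen only with RankL, held for 60 of the 91 genes when the brightest selected probe of each was checked with the scanner software's own flag. In those 60 that probe was well above background in RankL RNA on both arrays and in untreated RNA on neither. For 17 genes untreated RNA was above background on 1 array, and for 14 on both. By this flag these 31 probes read a low signal without RankL on at least 1 array. The split rests on 1 probe per gene. Another probe was well above background in untreated RNA on both arrays for Aif1, Csf2rb and Cyp2a4, counted among the 60. The same held for Agps, Parp4 and Pde4dip among the 31, and the other Agps probe was not low there, at 338 and 427. A stricter yardstick came from 153 negative control spots, whose 95th percentile of net signal in untreated RNA was 16 and 21.2 on the 2 arrays. On both arrays 29 members lay at or below those values in untreated RNA, 12 did so on 1 array and 50 on neither. The median net signal of the members was 272 and 293.5 in RankL RNA, against 20 and 28 in untreated RNA. Over all 41174 probes, 0 followed the dye at these thresholds, bright in 1 colour and dim in the other on both arrays. The opposite selection, at least 150 in untreated RNA and below 50 with RankL, found 29 probes (0.0704%) and 23 genes with a symbol.

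For the 60 genes dim in untreated RNA on both arrays a ratio is only a bound. It sets the normalized RankL signal against the lowest untreated signal called well above background on that array, or the probe's own where that is higher. These bounds ran from at least 2.80-fold to at least 105.5-fold with a median of 4.62-fold. For the other 31 a mean log2 ratio takes the place of a bound, and not every bound or ratio is printed. Signals of different probes depend on the probe as well as on the transcript, so their order is an order of brightness and not of abundance.

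The brightest member was ccdc198, which encodes a coiled-coil domain protein. Its net signals were 7846.5 and 8083.5 in RankL RNA, against 29 and 25 in untreated RNA, at least 105.5-fold higher. Plekhs1, which encodes a protein with a pleckstrin homology domain, followed with 1621.5 and 2292 in RankL RNA, against 20 and 28.5 in untreated RNA, at least 26.5-fold higher. Its second probe also met the selection but was far dimmer, at 178 and 171.5 in RankL RNA, against 4.5 and 19.5 in untreated RNA. Only 4 members reached 1000 in RankL RNA on both arrays, these being joined by Xlr5a and Kcna1. Kcna1, a voltage-gated potassium channel best known from neurons, had 1177 and 1409.5 in RankL RNA, against 16 and 12 in untreated RNA, at least 19.1-fold higher. At the other end, 44 members stayed under 300 in RankL RNA on both arrays.

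**Figure D2:**
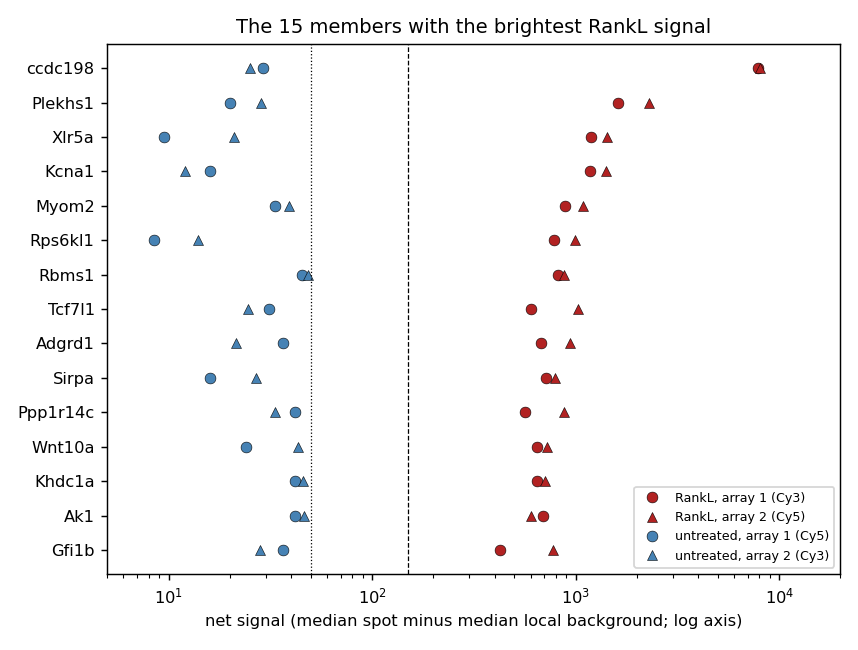
Net signals of the 15 members with the brightest RankL signal on a log axis, RankL RNA in red and untreated RNA in blue, circles for array 1 and triangles for array 2. Dashed and dotted lines mark the thresholds of 150 and 50. In every gene shown both RankL points lie right of 150 and both untreated points left of 50, as the selection requires.

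Surface receptors and adhesion proteins made up 14 of the members, and 11 of these were dark in untreated RNA on both arrays. Sirpa, the inhibitory receptor of myeloid cells that binds CD47, had 715 and 791 in RankL RNA, against 16 and 27 in untreated RNA, at least 11.1-fold higher. Csf2rb, the shared signalling chain of the receptors for IL-3, IL-5 and GM-CSF, had 472 and 605 in RankL RNA, against 33 and 35 in untreated RNA, at least 6.97-fold higher. Treml4, a receptor of the TREM family, had 418 and 372.5 in RankL RNA, against -3 and 16.5 in untreated RNA, at least 6.35-fold higher. The SD of the log2 ratio between arrays was 0.045 for Sirpa, 0.20 for Csf2rb and 0.37 for Treml4. Untreated signals of Csf2rb lay slightly above the highest negative control spots (31 and 32), while those of Sirpa and Treml4 lay below them. Trem2, which senses lipids and is known from macrophages, microglia and osteoclasts, had 174 and 234 in RankL RNA, against 3 and 17 in untreated RNA, at least 3.61-fold higher. Siglecf, a sialic acid receptor known from eosinophils and also from tuft cells of the mouse gut, had 260 and 304 in RankL RNA, against 8 and 20.5 in untreated RNA, at least 4.74-fold higher. Stab1, a scavenger receptor of sinusoidal endothelium and macrophages, had 247.5 and 285 in RankL RNA, against 10 and 30 in untreated RNA, at least 4.26-fold higher. Vsir, an immune checkpoint protein of the B7 family, had 170 and 168 in RankL RNA, against 21.5 and 21.5 in untreated RNA, at least 3.02-fold higher. In gene order Treml4 lies 2 genes from Trem2. These 7 were picked with the values known and stand for no list of myeloid genes. Among these 7 the highest untreated signal was 35 and the lowest RankL signal 168.

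Most markers that define white blood cells were dark in both RNAs. Dark probes were common on these arrays, where 16476 of all 41174 probes were above background in either RNA on both arrays. Whether these markers, or those of other cell types below, were dark more often than other probes was not tested. Ptprc, the pan-leukocyte phosphatase CD45, had 14.95 and 11.05 in RankL RNA, against 7.3 and 10.4 in untreated RNA, and was not above background on any array. Of 7 macrophage and dendritic cell markers with a probe, 6 (Adgre1, Csf1r, Fcgr3, Itgam, Itgax and Lyz2) were above background in neither RNA. The macrophage receptor gene Csf1r had 28 and 14.5 in RankL RNA, against 14 and 29 in untreated RNA. Summed over the 7 markers the net signal was 542.5 and 472.5 with RankL, against 255.5 and 270.5 without. Most of that sum came from Cd14, the lipopolysaccharide co-receptor, at 439 and 416 in RankL RNA, against 158 and 180.5 in untreated RNA. Of 5 general white blood cell markers 3 (Cd52, Laptm5 and Ptprc) were above background in neither RNA. Rac2, the small GTPase of the phagocyte oxidase, had 2003 and 2340.5 with RankL, against 183 and 170.5 without, and Coro1a 57 and 68, against 22.5 and 35.5. The sum over these 5 markers was 2096 and 2431 in RankL RNA, against 213.8 and 249.4 in untreated RNA, nearly all of it Rac2. In these sums a negative net signal counted as 0. Among 5 T cell markers 3 were above background in neither RNA and none was higher by the size rule. Among 5 B and plasma cell markers 3 were above background in neither RNA, and Cd79b, a chain of the B cell receptor, was higher with RankL at 485 and 536, against 112 and 124 without, a log2 ratio of 1.80 ± 0.040. The part of such cells in the values of the members was not tested.

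**Figure D3:**
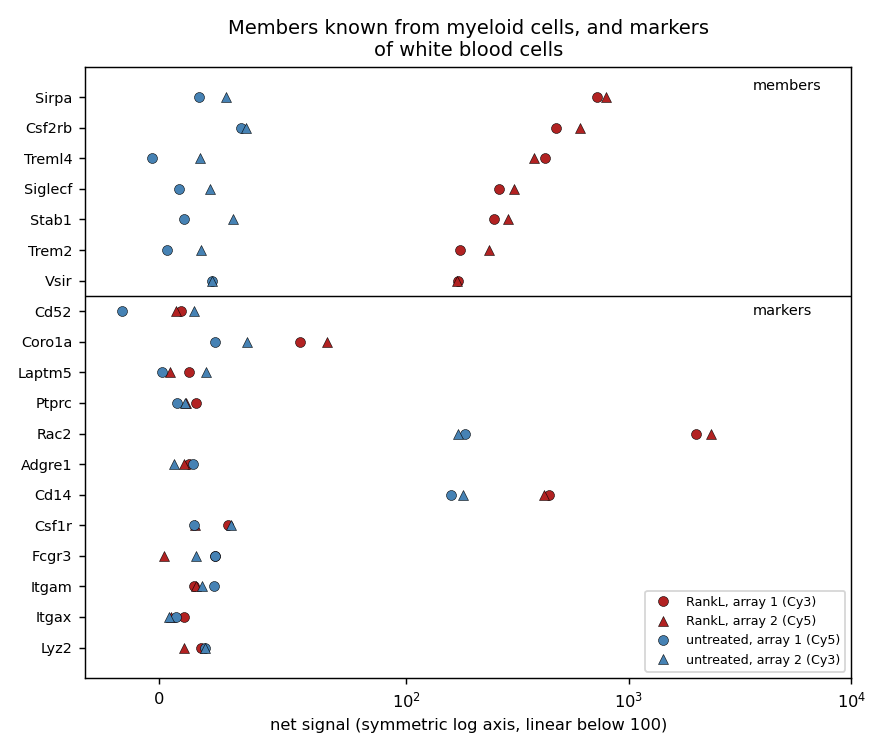
Net signals, on a symmetric log axis that is linear below 100, of 7 members known from myeloid cells (upper block) and of 12 markers of white blood cells, macrophages and dendritic cells (lower block). RankL RNA is red and untreated RNA blue, with circles for array 1 and triangles for array 2. The 7 members were picked with the values known and stand for no list, and the selection fixes their separation. Of the 12 markers 9 lie near 0 in both RNAs, the others being Rac2, Cd14 and, at a low level, Coro1a.

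The other surface proteins came from several families. Ngfr, the p75 neurotrophin receptor and a relative of RANK in the TNF receptor superfamily, was read by a probe printed 10 times. The means of its 10 spots were 527 and 554.6 in RankL RNA, against 34.3 and 41.45 in untreated RNA, a log2 ratio of 2.75 ± 0.053. Its single spots ran from 428 to 625.5 and from 391 to 694.5 in RankL RNA, against 12 to 50.5 and 26 to 55 in untreated RNA. Of these 10 spots 7 met the thresholds, and untreated RNA was above background on both arrays. Vcam1, the adhesion molecule that binds integrin VLA-4 and a known NF-kB target in endothelium, had 396 and 370.5 in RankL RNA, against 18.5 and 12.5 in untreated RNA, at least 6.10-fold higher. Adgrd1, an adhesion G protein-coupled receptor, had 674.5 and 941.5 in RankL RNA, against 36.5 and 21.5 in untreated RNA, a log2 ratio of 3.43 ± 0.49. Megf6, with many EGF-like repeats, had 486 and 529 in RankL RNA, against 38 and 31 in untreated RNA, at least 6.63-fold higher. Cmtm8, a membrane protein of the CKLF-like family, had 334 and 358 in RankL RNA, against 11 and 19 in untreated RNA, at least 5.66-fold higher. Of 5 endothelial markers 4, Pecam1 and Cdh5 among them, were above background in neither RNA, and Vwf was higher by the size rule. The 5 summed to 244.45 and 208.7 with RankL, against 80.75 and 106.15 without. Il6st, the gp130 chain shared by receptors of the IL-6 family, and the thrombospondin-domain protein gene Thsd1 stood closer to the thresholds. Il6st had 167.5 and 182 in RankL RNA, against 31 and 49 in untreated RNA, a log2 ratio of 1.33 ± 0.11, with untreated RNA above background on 1 array. Thsd1 had 156 and 195 in RankL RNA, against 5 and 6 in untreated RNA, at least 3.21-fold higher.

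Channels, transporters and other membrane proteins counted 9 members with RankL signals from 173 to 1409.5 and untreated signals from 12 to 45. Besides Kcna1 they included Abca13, a large ABC transporter, at 295.5 and 349 in RankL RNA, against 12.5 and 19 in untreated RNA. Col13a1, a collagen that spans the plasma membrane, stood at 263.5 and 292 in RankL RNA, against 13.5 and 14.5 in untreated RNA, and Flvcr2, a relative of a haem exporter, at 245 and 292 in RankL RNA, against 24 and 28.5 in untreated RNA. Bounds for these 3 genes were at least 5.30-fold, at least 4.69-fold and at least 4.12-fold. Rhbdl3, of the rhomboid family of membrane proteases, had 3 probes, and both of those that met the selection gave similar values. The brighter had 259 and 288.5 in RankL RNA, against 38 and 31.5 in untreated RNA, and the other 277 and 254 in RankL RNA, against 30 and 24 in untreated RNA. The last of them read 23 and 59.5 with RankL, against 29 and 40 without. Of the rest, the claudin gene Cldn13 had 207.5 and 205 in RankL RNA, against 20.5 and 25.5 in untreated RNA, and the synaptotagmin gene Syt8 205.5 and 220.5 in RankL RNA, against 12.5 and 21 in untreated RNA. The transmembrane protein genes Tmem140 and Tmem184c, for which no role is given here, were the last of this group. Tmem140 had 272 and 336.5 in RankL RNA, against 32 and 45 in untreated RNA. Tmem184c had 173 and 218 in RankL RNA, against 22 and 34 in untreated RNA. Of 6 neuron and glia markers 4 were above background in neither RNA, and S100b was higher by the size rule. The 6 summed to 290.8 and 313.95 with RankL, against 166.05 and 202.85 without, and their part in the Kcna1 value was not tested.

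Secreted proteins were represented by 8 members. Wnt10a, a Wnt ligand, was the brightest at 642 and 719.5 in RankL RNA, against 24 and 43 in untreated RNA, a log2 ratio of 3.13 ± 0.12. Pf4, the platelet chemokine CXCL4, had 414 and 607 in RankL RNA, against 11 and 25 in untreated RNA, at least 7.69-fold higher. Umod, uromodulin, which is known as the main protein of the kidney's thick ascending limb in urine, had 318.5 and 403 in RankL RNA, against 9 and 19 in untreated RNA, at least 5.84-fold higher. The untreated signals of these 3 lay between 9 and 43. Mslnl, a mesothelin-like protein, had 262 and 377 in RankL RNA, against 8 and 16 in untreated RNA, at least 5.20-fold higher. Serpina1c, a form of the protease inhibitor alpha-1-antitrypsin, had 336 and 280 in RankL RNA, against 28 and 35 in untreated RNA, and F7, coagulation factor VII, 173.5 and 209 in RankL RNA, against 22.5 and 27 in untreated RNA. Lrrc17 (170 and 189.5 in RankL RNA, against 8 and 21.5 in untreated RNA), known in mouse as an inhibitor of RANKL-driven osteoclast formation, and the prolactin family gene Prl2c5 (217 and 182 in RankL RNA, against 24 and 31 in untreated RNA) were near the lower limit. Next to them on the dim side of the limit was Csf1, the growth factor of macrophages and osteoclast precursors. It missed the selection with means of 160.25 and 148.8 over 10 spots in RankL RNA, against 14.95 and 17.25 in untreated RNA, while 4 of its 10 spots met the thresholds.

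Besides the ligand Wnt10a, 3 members are known from work on Wnt signalling. They were picked with the values known and stand for no list of that pathway. Tcf7l1, a TCF factor that mostly represses Wnt targets, had 603 and 1025.5 in RankL RNA, against 31 and 24.5 in untreated RNA, a log2 ratio of 3.43 ± 0.58. Nkd2, a Dishevelled-binding inhibitor that is itself induced by Wnt signalling in many tissues, had 178.5 and 180.5 in RankL RNA, against -1.5 and 11 in untreated RNA, at least 3.29-fold higher. Ankrd6, the Dishevelled-binding protein Diversin, had 203.5 and 222 in RankL RNA, against 22 and 38 in untreated RNA, at least 3.26-fold higher. The lowest RankL signal of these 4 genes was 178.5 and the highest untreated signal 43. In the same RNAs 2 of 4 measured stem cell markers, Lgr5 and Smoc2, were lower with RankL by the size rule, and 2 were neither. Axin2, a Wnt target and 1 of those 2, had 25 and 25.5 in RankL RNA, against 52 and 66.5 in untreated RNA. Lgr5 had 209 and 325 in RankL RNA, against 1545 and 1749.5 in untreated RNA, a log2 ratio of -2.30 ± 0.14.

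Regulators of transcription and RNA numbered 11. Rbms1, an RNA- and single-stranded DNA-binding protein, had 817.5 and 881 in RankL RNA, against 45 and 48.5 in untreated RNA, a log2 ratio of 3.24 ± 0.006. Gfi1b, a zinc finger repressor of erythroid and megakaryocyte development that also marks tuft cells, had 423 and 774 in RankL RNA, against 36.5 and 28 in untreated RNA, a log2 ratio of 2.93 ± 0.66. Of 5 measured tuft cell markers Gfi1b was higher by the size rule and 4 were neither, with Dclk1 at 194 and 232.5 in RankL RNA, against 108.5 and 113.5 in untreated RNA. Summed over the 6 tuft markers other than Gfi1b the net signal was 562.5 and 604.5 with RankL, against 286 and 321 without, and Il25 and Pou2f3 were above background in neither RNA. The part of tuft cells in the Gfi1b and Siglecf values was not tested. Bicc1, an RNA-binding protein known from kidney tubules, had 244 and 243 in RankL RNA, against 16 and 42 in untreated RNA, at least 3.70-fold higher. The zinc finger genes Zfp819 (416.5 and 411 in RankL RNA, against 13 and 19 in untreated RNA) and Zfp949 (155.5 and 206 in RankL RNA, against 37 and 42 in untreated RNA) and the testis-expressed Zmynd15 (272 and 313 in RankL RNA, against 17 and 18 in untreated RNA) completed the zinc finger proteins of this group.

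Several members are best known from germ cells, early embryos or lymphocytes in mouse. Xlr5a and Xlr5c belong to an X-linked family of lymphocyte-regulated genes. Xlr5a had 1193.5 and 1431 in RankL RNA, against 9.5 and 21 in untreated RNA, at least 19.4-fold higher, and Xlr5c 263 and 282.5 in RankL RNA, against 7.5 and 17 in untreated RNA, at least 4.61-fold higher. In gene order DXBay18, with 340 and 287 in RankL RNA, against 20 and 29 in untreated RNA, lies between them, with 1 gene between it and Xlr5a and 7 between it and Xlr5c. Khdc1a, of an oocyte-expressed KH-domain family, had 642 and 709.5 in RankL RNA, against 42 and 45.5 in untreated RNA, a log2 ratio of 2.97 ± 0.034, and Pramel4 239.5 and 312 in RankL RNA, against 15.5 and 16 in untreated RNA, at least 4.63-fold higher. These genes have near-identical copies in the mouse genome, so their probes may read a relative, and the values are uncertain for single genes.

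Intracellular signalling was the largest role, with 23 members, of which 14 were dark in untreated RNA on both arrays. Molecular switches of the Ras and Rab families and genes grouped with them supplied 7 of them. Rassf2, a Ras-association domain protein, had 458 and 571 in RankL RNA, against 30.5 and 35 in untreated RNA, at least 6.78-fold higher. Rasal1, a GTPase-activating protein for Ras, had 301.5 and 298 in RankL RNA, against 19.5 and 29 in untreated RNA, and Rasgrp3, an exchange factor that activates Ras and Rap, 197.5 and 197 in RankL RNA, against 3 and 18 in untreated RNA. Rasd1, a Ras-like protein first known as induced by dexamethasone, had 286 and 293.5 in RankL RNA, against 39 and 39 in untreated RNA, a log2 ratio of 1.94 ± 0.018. The 7 genes had untreated signals of at most 39. The Rab proteins, which direct vesicle traffic, were Rab31 (154 and 178 in RankL RNA, against 27.5 and 38 in untreated RNA) and Rab42 (156.5 and 216.5 in RankL RNA, against 9.5 and 16 in untreated RNA), both close to the limit of 150 on array 1. Arhgef10 was similar at 169.5 and 157.5 in RankL RNA, against 25.5 and 25.5 in untreated RNA. It lies 7 genes from Myom2, another member.

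Kinases and phosphatase regulators came next. Rps6kl1, a kinase-like relative of the ribosomal S6 kinases, had 782.5 and 994.5 in RankL RNA, against 8.5 and 14 in untreated RNA, at least 13.3-fold higher. Plk2, a polo-like kinase induced by stress and by growth factors, had 407 and 770.5 in RankL RNA, against 37.5 and 38.5 in untreated RNA, a log2 ratio of 2.81 ± 0.57. Mapk11, the p38 beta kinase, had 229 and 254 in RankL RNA, against 41 and 42 in untreated RNA, a log2 ratio of 1.68 ± 0.076, and Camk2a, known from neurons, 181 and 194 in RankL RNA, against 41 and 39.5 in untreated RNA, a log2 ratio of 1.41 ± 0.079. All but Rps6kl1 were detected without RankL on at least 1 array. Ppp1r14c, an inhibitor of protein phosphatase 1, was read by a pair of probes that both met the selection. The brighter gave 564.5 and 877 in RankL RNA, against 42 and 33.5 in untreated RNA and the other 172 and 202.5 in RankL RNA, against 21 and 22 in untreated RNA. Ppp1r1a, another inhibitor of that phosphatase, had 217 and 196.5 in RankL RNA, against 38 and 43.5 in untreated RNA, a log2 ratio of 1.51 ± 0.13.

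Adaptors and scaffolds close to NF-kB and receptor signalling were also present. Traf1, the TRAF family adaptor that is a known NF-kB target, had 162.5 and 226 in RankL RNA, against 11 and 22 in untreated RNA, at least 3.44-fold higher. Its relatives Traf2 and Traf3 were above background without RankL as well, and Traf5 was so in neither RNA. Traf2 had 1663 and 1701 in RankL RNA, against 810 and 839 in untreated RNA, and Traf3 499 and 565.5, against 299 and 307. Sh3kbp1, the adaptor CIN85, which takes part in receptor endocytosis, had 285.5 and 308 in RankL RNA, against 13 and 18 in untreated RNA on 1 probe and 214 and 296.5, against 19 and 16, on another. On the last of its 3 probes it was above background in neither RNA, at 36 and 34 with RankL, against 11 and 14 without. Mfhas1, a leucine-rich repeat protein, had 460.5 and 602.5 in RankL RNA, against 39 and 32.5 in untreated RNA, a log2 ratio of 2.76 ± 0.31. Pde4dip, the centrosome and Golgi protein myomegalin, had 437 and 445 in RankL RNA, against 16.5 and 47 in untreated RNA, a log2 ratio of 2.59 ± 0.34. Pakap, an anchoring protein of protein kinase A, lay just inside the limit at 151 and 173.5 in RankL RNA, against 17 and 31 in untreated RNA. Its other probes were above background in neither RNA. Rnf183, a ubiquitin ligase known from kidney, had 189 and 226 in RankL RNA, against 17 and 15.5 in untreated RNA, and Gbp8, a guanylate-binding protein of the interferon-induced family, 252.5 and 247.5 in RankL RNA, against 9.5 and 9.5 in untreated RNA. For these last 3 the bounds were at least 2.82-fold, at least 3.66-fold and at least 4.30-fold.

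Metabolic and glycan enzymes gave 14 members, none above 691 in RankL RNA. Ak1, an adenylate kinase that balances adenine nucleotides, had 691 and 606 in RankL RNA, against 42 and 46 in untreated RNA, a log2 ratio of 2.91 ± 0.19. Ldhb, the lactate dehydrogenase subunit that prevails in heart, had 482.5 and 458 in RankL RNA, against 24.5 and 44 in untreated RNA, a log2 ratio of 2.63 ± 0.27. Gldc, the decarboxylase of the glycine cleavage system, had 205 and 204 in RankL RNA, against 14 and 17 in untreated RNA, at least 3.65-fold higher. Fabp4, the fatty acid-binding protein of fat cells and macrophages, had 250.5 and 247.5 in RankL RNA, against 9.5 and 7.5 in untreated RNA, at least 4.29-fold higher. Its other probes read 163 and 134, and 16 and 17.5, in RankL RNA, against 44 and 16, and 18 and 17, in untreated RNA. Fabp1, a relative of Fabp4 in enterocytes, was lower with RankL, at 5099.5 and 11699, against 71808.5 and 91058 without, a log2 ratio of -3.02 ± 0.29. Fabp2, another enterocyte relative, was higher, at 31365 and 38807.5, against 21218.5 and 21264 without, a log2 ratio of 1.09 ± 0.13. Of 10 absorptive enterocyte markers 4 were higher by the size rule, 1 (Fabp1) lower and 5 neither. Sgpp1, a sphingosine-1-phosphate phosphatase, had 281.5 and 263.5 in RankL RNA, against 40 and 37.5 in untreated RNA, and Ces3b, a carboxylesterase, 254.5 and 260 in RankL RNA, against 19 and 23.5 in untreated RNA. Agps, of ether lipid synthesis, had 233 and 240 in RankL RNA, against 37 and 47 in untreated RNA, and Parp4, a poly(ADP-ribose) polymerase of vault particles, 186 and 282 in RankL RNA, against 43 and 42 in untreated RNA. Both had a second probe that read untreated RNA as well.

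Enzymes that build or modify sugar chains formed a group of 4. Chst8, which transfers sulfate to N-acetylgalactosamine, had 523 and 457.5 in RankL RNA, against 28 and 48.5 in untreated RNA, a log2 ratio of 2.62 ± 0.36. Extl1, of the family that elongates heparan sulfate, had 398 and 444 in RankL RNA, against 29 and 40 in untreated RNA, at least 5.57-fold higher. Csgalnact1, which starts chondroitin sulfate chains, had 277 and 392 in RankL RNA, against 11 and 24 in untreated RNA, at least 5.32-fold higher. St3gal1, which caps mucin-type O-glycans with sialic acid, had 231 and 218.5 in RankL RNA, against 33.5 and 41 in untreated RNA, at least 3.16-fold higher. Their RankL signals ran from 218.5 to 523, and untreated signals reached 48.5.

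The cytochrome P450 genes Cyp2a5 and Cyp2a4 encode closely related enzymes, known in mouse liver as coumarin and steroid hydroxylases. Cyp2a5 had 454.5 and 530 in RankL RNA, against 6 and 15.5 in untreated RNA, at least 7.72-fold higher, and Cyp2a4 172.5 and 173 in RankL RNA, against -2 and 6 in untreated RNA, at least 3.19-fold higher. A second Cyp2a4 probe had 130.5 and 136 with RankL, against 4 and 10 without, and the last of its 3 probes 57 and 65.5, against 47 and 45. The probes of such near-identical genes can bind both transcripts. The same holds for Csf2rb, Prl2c5, Serpina1c and Gbp8, which also belong to families with close copies.

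Proteins of the cytoskeleton, of muscle and of membrane shape gave 7 members. Myom2, the M-band protein of striated muscle, was the brightest at 881.5 and 1092 in RankL RNA, against 33.5 and 39 in untreated RNA, a log2 ratio of 3.59 ± 0.13. Mybpc2, the myosin-binding protein of fast skeletal muscle, had 210 and 191 in RankL RNA, against 32.5 and 46 in untreated RNA, a log2 ratio of 1.5 ± 0.21. No list of striated muscle markers was examined. Among markers of smooth muscle, a different tissue, none passed the size rule. Acta2 had 1606 and 1841.5 with RankL, against 1224.5 and 1243.5 without, and Des, Cnn1 and Myh11 were above background in neither RNA. Amph, amphiphysin, which bends membranes during endocytosis, had 292 and 375.5 in RankL RNA, against 6 and 17.5 in untreated RNA, at least 5.44-fold higher. Tubb6, a beta-tubulin, had 212.5 and 246 in RankL RNA, against 13.5 and 36.5 in untreated RNA, and Cfap45, a protein of motile cilia, 163 and 174 in RankL RNA, against 1 and 7 in untreated RNA. Aif1l, an actin-binding relative of Aif1, had 405 and 486 in RankL RNA, against 15.5 and 28 in untreated RNA, at least 6.75-fold higher. Aif1, known as Iba1 of macrophages and microglia and an M cell marker, met the selection only on its dimmer probe, at 162 and 159 in RankL RNA, against 14 and 9 in untreated RNA. Its brighter probe had 1470 and 2125 in RankL RNA, against 168.5 and 101.5 in untreated RNA.

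Little is known of the remaining members. Fam131a had 517 and 618 in RankL RNA, against 25 and 43 in untreated RNA, a log2 ratio of 2.88 ± 0.045, and Ccdc184 324 and 376.5 in RankL RNA, against 10 and 15.5 in untreated RNA, at least 5.71-fold higher. Ankrd35, an ankyrin repeat protein, had 200.5 and 220 in RankL RNA, against 25 and 41.5 in untreated RNA, a log2 ratio of 1.64 ± 0.10. These 3 belong with ccdc198 and DXBay18 to the members for which no role is given here.

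Array 2 read the members slightly brighter than array 1. The ratio of the RankL net signals, array 2 over array 1, had a median of 1.11 and ran from 0.833 to 1.89, and 68 of 91 genes were brighter on array 2. The log2 ratios had medians of 2.26 on array 1 and 2.30 on array 2. Over the members the median SD between arrays was 0.11, against 0.15 over all measured genes. In 5 members the SD exceeded 0.4, namely Gfi1b, Tcf7l1, Plk2, Adgrd1 and Ppp1r14c. Each of these read higher on array 2, with Gfi1b at 2.47 and 3.39, Tcf7l1 at 3.02 and 3.84, Plk2 at 2.40 and 3.21, Adgrd1 at 3.09 and 3.78 and Ppp1r14c at 2.77 and 3.47 on the log2 scale.

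**Figure D4:**
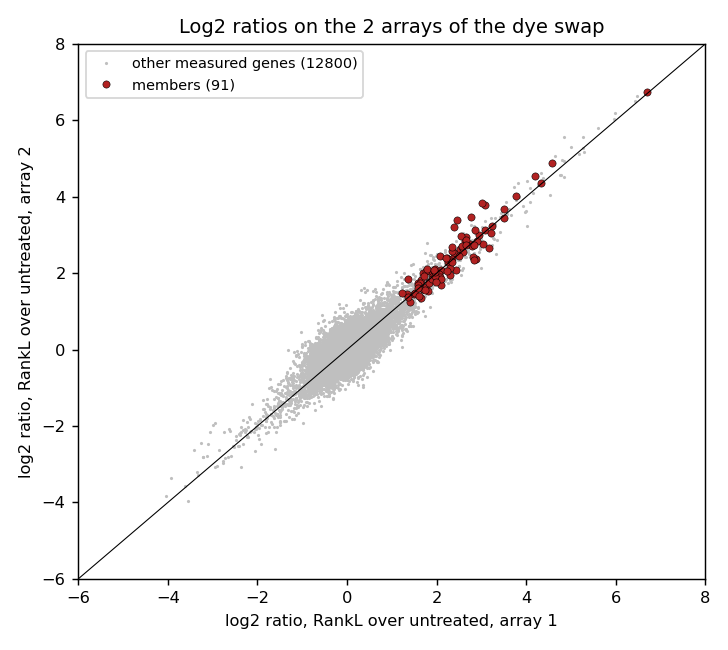
Log2 ratio of RankL over untreated on array 1 (horizontal) and array 2 (vertical) for the members (red) and the other measured genes (grey), with the line of equality. The members lie along that line, between 1.33 and 6.72 in their means. For members dim in untreated RNA the position depends on the offset of 50 added in background correction.

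Other probes of the same genes did not always show the pattern. Of the 91 genes 57 had a single probe on the array and 34 had several. All probes met the selection in 2 of the 34, Plekhs1 and Ppp1r14c, and in 32 at least 1 probe did not. The 43 other probes of these 32 genes included 23 that were not above background in either RNA on both arrays, 20 that were so in RankL RNA and 8 that met the size rule upwards. Their mean log2 ratio was below 0.5 in 30 cases. For Sirpa the other probes had 34 and 32.5, and 25 and 16.5, in RankL RNA, against 11.5 and 7.5, and 4 and 20.5, in untreated RNA. For Vcam1 the second probe stayed at or below 12 in both RNAs. The second probe of Ngfr had 38 and 22 with RankL, against 21 and 30.5 without, and that of Rps6kl1 20 and 8, against 14 and 20. In these genes the pattern rests on 1 of the probes. Of the 34 genes only Plekhs1, Ppp1r14c, Rhbdl3 and Sh3kbp1 had more than 1 probe that met the selection. The second probe of Trem2 had 73.5 and 58.5 with RankL, against 18 and 26 without. That of Stab1 had 12.5 and 9, against -2.5 and 6.5. The other Rbms1 probes had 20.5 and 14, and 56.5 and 86, with RankL, against 4 and 11, and 18 and 6, without. The second probes of Megf6, Nkd2 and Camk2a were above background in neither RNA. The array's probe sequences are not used here, so which transcript or exon each probe reads is not known.

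In 6 genes another probe was well above background in untreated RNA on both arrays. For these the signal without RankL depends on the probe, and in Cyp2a4 and Csf2rb such a probe may read a close relative. They are Aif1, Agps, Parp4, Pde4dip, Csf2rb and Cyp2a4. In Aif1 and Agps the other probe was the brighter and was higher with RankL by the size rule. The second Agps probe had 2696 and 2585 in RankL RNA, against 338 and 427 in untreated RNA, a log2 ratio of 2.77 ± 0.38. The second Parp4 probe, with 186 and 174 in RankL RNA, against 55 and 50.5 in untreated RNA, was higher by that rule too. A second Pde4dip probe had 169.5 and 155 with RankL, against 115 and 125 without. A second Csf2rb probe had 79 and 59 with RankL, against 80 and 58 without, which is no difference beyond that between the arrays. The last of the 3 Csf2rb probes was above background in neither RNA, at 17.5 and 4 with RankL, against 2 and 5 without.

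**Figure D5:**
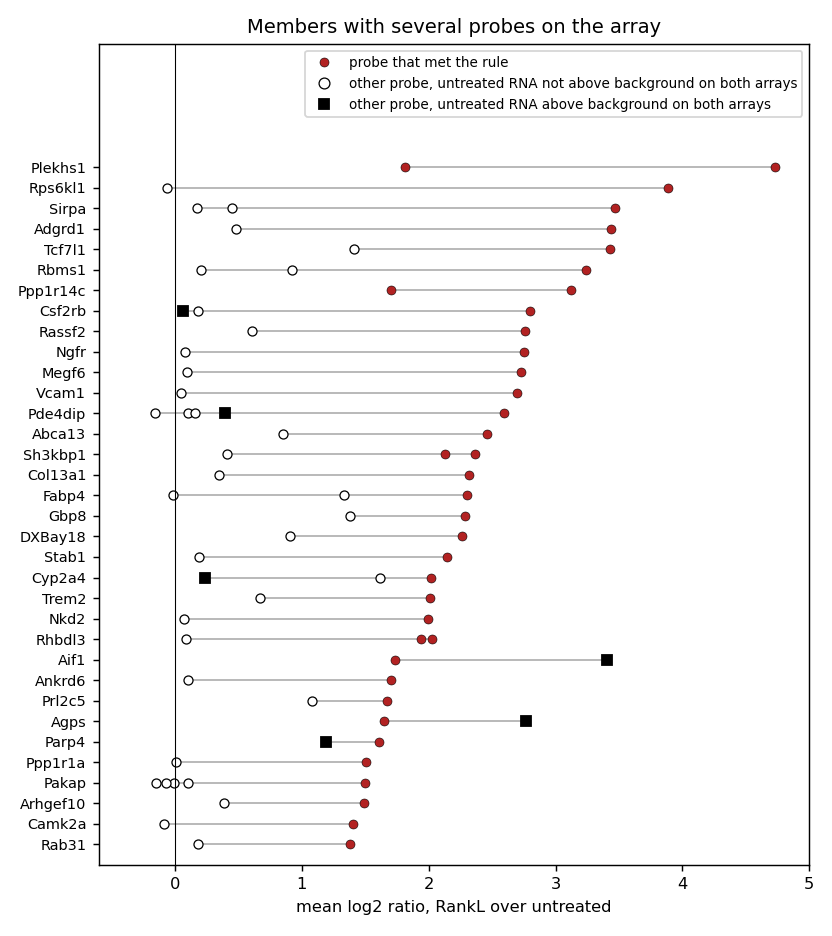
Mean log2 ratio of RankL over untreated for every probe of the 34 members with several probes, a gene per row. Red circles are probes that met the selection, open circles and black squares the other probes, black where untreated RNA was above background on both arrays. Most open circles lie near 0, and the black squares of Aif1 and Agps lie at 3.40 and 2.77.

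Near the thresholds the members graded into genes that were left out. Just inside the RankL limit stood Pakap, Rab31, Zfp949, Thsd1 and Rab42, whose lower RankL signals ran from 151 to 156.5. Just outside were Col4a1 at 149 and 194.5, Pglyrp2 at 157 and 149, Csf1, Clic5 at 148 and 206 and Trak2 at 148 and 145. At the untreated limit the highest values inside were those of Il6st, Rbms1, Chst8, Pde4dip and Agps, from 47 to 49. Outside it stood Kcnk6, with 467 and 564.5 in RankL RNA, against 49.5 and 50 in untreated RNA. Mvb12b, Timp3, the complement gene C3 and Mex3b followed, with higher untreated signals from 50.5 to 51.5. The complement component C3 had 184.05 and 215.05 as means of 10 spots with RankL, against 38.7 and 51.2 without, and 6 of its 10 spots met the thresholds.

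Promoter sequence is a feature that the selection did not use. RefSeq windows of 300 bases, from 250 before to 50 after an annotated start on GRCm38.p6, were found for 68 of the 91 genes (87 windows). Across both strands 6 short motifs were searched, overlaps between motifs allowed. The 8 letters GAGGAAGT, which hold the GGAA core that Ets factors bind, occurred in 11.5% of the members' windows, against 3.2% of all 32851 windows. Counted by gene that is 10 of 68 genes (14.7%), against 3.69% of all genes, namely Ankrd6, Ccdc184, Cyp2a4, Cyp2a5, Fam131a, Pf4, Ppp1r14c, Rasgrp3, Rnf183 and Tmem184c. The kappaB consensus, to which NF-kB binds, was in 4.6% of the members' windows, against 4.51% of all, and the AP-1 letters TGANTCA in 6.9%, against 7.81%. The other shares were 10.3%, against 13.6%, for TATAAA, 4.6%, against 6.38%, for GTGGGAA, and 0%, against 0.938%, for CTTTGATC. These are letter matches and not binding sites. No test was made, and the share for GAGGAAGT was the largest departure of 6 looked at.

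The promoters of 5 genes with GAGGAAGT are shown with the match in capitals (ACTTCCTC where it lies on the other strand). Beside them are those of ccdc198, the brightest member, and of Ak1, with the kappaB consensus in capitals. The ccdc198 window has no match to the whole of GAGGAAGT, though it does hold the GGAA core. The matches of the Cyp2a pair begin 199 and 198 bases before the start, and their windows share 97.7% of 301 aligned positions, so they are not independent. The match of Pf4 begins 10 bases before the start, that of Ppp1r14c 101 and that of Rasgrp3 50. The Ak1 match begins 23 bases after it. The windows are chr14:49245379-49245678 (ccdc198, minus strand), chr7:26835089-26835388 (Cyp2a5, plus strand), chr7:26306942-26307241 (Cyp2a4, plus strand), chr5:90772185-90772484 (Pf4, plus strand), chr10:3365900-3366199 (Ppp1r14c, plus strand), chr17:75435655-75435954 (Rasgrp3, plus strand) and chr2:32628140-32628439 (Ak1, plus strand).
ccdc198: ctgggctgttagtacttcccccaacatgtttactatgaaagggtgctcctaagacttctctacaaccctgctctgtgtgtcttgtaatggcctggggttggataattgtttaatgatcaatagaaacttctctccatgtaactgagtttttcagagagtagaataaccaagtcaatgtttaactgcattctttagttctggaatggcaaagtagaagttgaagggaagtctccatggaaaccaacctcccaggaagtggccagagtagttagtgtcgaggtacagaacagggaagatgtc
Cyp2a5: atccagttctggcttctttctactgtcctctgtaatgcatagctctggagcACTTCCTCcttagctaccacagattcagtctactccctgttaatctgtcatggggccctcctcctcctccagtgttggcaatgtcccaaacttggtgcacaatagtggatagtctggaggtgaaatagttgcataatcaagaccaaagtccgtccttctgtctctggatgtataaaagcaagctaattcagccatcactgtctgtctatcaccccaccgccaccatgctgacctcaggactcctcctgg
Cyp2a4: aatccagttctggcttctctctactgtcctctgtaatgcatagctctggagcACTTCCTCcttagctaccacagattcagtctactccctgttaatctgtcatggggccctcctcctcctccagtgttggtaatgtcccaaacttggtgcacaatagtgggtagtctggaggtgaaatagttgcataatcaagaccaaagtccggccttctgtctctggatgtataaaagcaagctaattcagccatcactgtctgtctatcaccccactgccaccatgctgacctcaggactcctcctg
Pf4: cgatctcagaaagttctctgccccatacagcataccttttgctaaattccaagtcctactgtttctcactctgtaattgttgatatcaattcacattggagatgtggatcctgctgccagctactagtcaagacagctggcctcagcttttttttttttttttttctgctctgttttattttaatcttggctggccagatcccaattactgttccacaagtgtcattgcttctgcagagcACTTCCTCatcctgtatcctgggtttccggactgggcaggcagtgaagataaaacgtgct
Ppp1r14c: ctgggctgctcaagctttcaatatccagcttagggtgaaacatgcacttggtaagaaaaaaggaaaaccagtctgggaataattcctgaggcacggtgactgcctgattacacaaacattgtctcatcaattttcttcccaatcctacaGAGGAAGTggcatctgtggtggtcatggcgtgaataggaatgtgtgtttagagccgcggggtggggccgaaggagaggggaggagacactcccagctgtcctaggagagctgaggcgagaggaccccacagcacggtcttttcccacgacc
Rasgrp3: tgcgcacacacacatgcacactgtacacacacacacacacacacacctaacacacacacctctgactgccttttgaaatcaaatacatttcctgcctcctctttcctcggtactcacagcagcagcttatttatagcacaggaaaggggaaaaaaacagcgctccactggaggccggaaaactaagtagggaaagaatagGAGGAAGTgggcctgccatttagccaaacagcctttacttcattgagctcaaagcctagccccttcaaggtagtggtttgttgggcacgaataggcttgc
Ak1: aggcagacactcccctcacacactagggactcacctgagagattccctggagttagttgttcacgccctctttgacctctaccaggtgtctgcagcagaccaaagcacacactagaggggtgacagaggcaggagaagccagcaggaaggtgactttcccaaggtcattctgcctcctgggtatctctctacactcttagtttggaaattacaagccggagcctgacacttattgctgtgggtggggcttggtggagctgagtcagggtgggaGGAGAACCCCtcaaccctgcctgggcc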

How the data were processed

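Small-intestinal organoids with and without RankL were compared on 2 dual-colour Agilent arrays, a dye swap of 1 RNA pair. The authors deposited 1 scanner file per array, made with Agilent Feature Extraction 10.5.1.1 per the file headers (8.5.1.1 per the submitters' processing notes). Per the file headers they hold spot and background intensity in each colour, flags of 0 or 1 per spot, and log10 ratios of red over green. The authors' deposited value table holds log10 ratios whose column medians are 0 and 0. Its direction, set against the scanner values, is RankL over untreated on both arrays.

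Net signal was median minus background median intensity, averaged over the spots of a probe. Ratios came from limma 3.58.1 in R 4.3.3 (normexp with offset 50, loess within arrays, control spots at weight 0), and other steps from Python 3.11.15. The ratio pipeline was tested on simulated data. Signed values are RankL over untreated, turned for the dye swap. Fold values at low signal depend on the offset. Of 45018 spots 0 were saturated. No test was made, because 1 RNA pair fills both arrays, and the small number of arrays limits precision.

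Symbols came from RefSeq accessions, for 26918 of 41174 probes. The members and lists were chosen with earlier results of these data known. All members are named, and grouped by role. Per-array values are given for the 15 brightest, for those that share a family or have a second probe, and for the 5 on each side of each threshold, and further members are given with their signals. Alternatives changed the thresholds, flags, background correction, scaling, probe choice and arrays used.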

Additional observations from a re-analysis of the deposited data

Results flagged for a closer look

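Among the 13 probes that met the signal thresholds but carry no gene symbol, 3 are given here because they lie outside the comparison of named genes while being bright with RankL and dim in untreated RNA. The probe for ENSMUST00000086399, printed 10 times, had net signals of 2322.3 and 2889.65 in RankL RNA, against 31.7 and 45.2 in untreated RNA. The probe for AK021106 had 550.5 and 626 in RankL RNA, against 34 and 31 in untreated RNA. The probe for ENSMUST00000044766 had 378 and 482.5 in RankL RNA, against 43 and 47.5 in untreated RNA. No symbol was assigned to them here.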

How the results depend on the processing

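The number of genes selected depended on the thresholds. It was 138 with a RankL threshold of 100 and 35 with 300, and 39 with an untreated threshold of 25 and 198 with 100, against 91 as reported. With 1 array alone it was 112 to 115. The scanner's background flags in place of the untreated threshold gave 62 genes, and its processed signals gave 116, of which 41 were among the 91. The median log2 ratio of 2.31 moved to 3.07 with an offset of 16, to 3.74 with plain net signals and a floor of 20, and to 4.66 with the scanner's log ratios and also with the authors' deposited table. It was 1.94 with the lowest-ratio measured probe of each gene, where 80 of the 91 genes stayed past the size rule. The 23 other probes not above background in either RNA on both arrays did not enter that choice. With either array alone it was 2.30 to 2.35. The cause of these shifts was not tested. Of the alternatives chosen after seeing the data, counting any single spot gave 94 genes, leaving out genes with another probe detected in untreated RNA 85, and requiring untreated RNA to be dim on both arrays 62, where any selected probe of a gene sufficed (60 by the brightest). No paired analysis was possible because both arrays hold the same RNA pair and the values come from no test. Negative control spots reached 31 and 32 in untreated RNA, so levels under these could not be told from background.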
